A study of Mus musculus with 12 samples.

Results

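The genes described here encode the receptors, transporters and enzymes through which noradrenaline, serotonin and acetylcholine act. The list held 33 genes, chosen by name. They were found on the array as every probe whose gene symbol in the platform annotation is 1 of those names. This gave 55 of the array's 45281 probes, for 29 of the 19057 genes with a probe. Adra1a, Adra1d, Adra2a and Adrb1 had no probe in the annotation used and were not analysed here.

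The mice were C57Bl/6J males, 10 weeks old. Amygdala tissue from both sides was taken with a 1 mm punch, and its RNA was measured on 12 single-colour Illumina bead arrays. The IMO_FC group had immobilization stress and later fear conditioning, and was taken 2 h after the conditioning (4 arrays). The FC group had fear conditioning without immobilization and was also taken 2 h after it (4 arrays). The HC group stayed in the home cage (4 arrays). The series' design text words the treatment of the first 2 groups as fear expression and extinction, while the labels of the arrays say fear conditioning. The animals carried no transgene or deletion that the labels name. The labels do not say whether arrays of 1 group came from separate animals, so a p-value here reflects array-to-array spread, which may be technical.

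In the brain, noradrenaline and serotonin are made by small groups of brainstem neurons whose axons reach the amygdala, and acetylcholine is made by basal forebrain neurons that innervate it densely. The mRNAs for the enzymes and transporters of these axons are mostly in the distant cell bodies, whereas the mRNAs for the receptors are made by the amygdala's own cells as well. The systems are known for their part in arousal and in the formation of fear memory.

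Arrays FC 1 and FC 3 stood apart from the rest. They had 11.7% and 15.9% of all probes detected, against 39.0% to 50.7% on the other 10 arrays, where a probe is detected at a detection p under 0.05. The rank correlation of their signals with the other 10 arrays was 0.219 to 0.409, against 0.770 to 0.933 among those 10. Array IMO_FC 1 had 39.0% of probes detected, and the next lowest after it had 45.1%. Differences from HC are given for the full set of 12 arrays, and for FC again on the 10 arrays without FC 1 and FC 3. The IMO_FC difference is given on the 9 arrays that also lack IMO_FC 1 where it turns its sign or moves by over 1.5 times there. Amygdala markers were present: all 6 excitatory genes (such as Slc17a7 and Rspo2) and all 7 genes of central amygdala GABA neurons (such as Prkcd and Sst) passed the detection filter. On the 10 arrays the summed normalized signal of the excitatory list was 2304 to 3537 in IMO_FC, 3609 to 4060 in FC and 2829 to 4111 in HC. That of the central GABA list was 6923 to 9470 in IMO_FC, 7732 to 8205 in FC and 8248 to 9202 in HC.

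On FC 1 and FC 3 the marker lists stood apart as well. Over all 12 arrays the summed signal of the central GABA list was 577.1 on FC 1 and 1511 on FC 3, against 6139 to 8506 on the other 10. For 5 general neuron genes (such as Snap25) it was 1955 and 4074, against 6309 to 7168. A list of 5 choroid plexus genes (such as Ttr), 4 of them tested, was at 13804 and 6609, against 1758 to 5032. By these sums both of these neuronal lists were low and the choroid plexus list high on both arrays. The mean log2 signal of the choroid plexus list on FC 3, 7.76, lay within the 6.26 to 9.17 of the other 10. Lists of other cells stood apart too. Endothelium was at 205.6 and 167.8, against 682.3 to 862.3, and microglia at 1267 and 1121, against 515.2 to 775.5. Oligodendrocytes were at 5484 on FC 1 and 662.4 on FC 3, against 3980 to 6605. Other neuronal lists were not low throughout: the excitatory list was at 1796 and 2632, against 1964 to 3547. A list of 5 cholinergic neuron genes was at 694.4 and 521.4, against 114.9 to 303.6. Its mean normalized log2 signal was 6.81 on FC 1 and 6.16 on FC 3. The lowest signal of a detected probe was higher on both arrays, at 8.11 and 7.54. These high sums therefore need not be detected signal. A list of striatal neuron genes, at 1370 and 2195, lay within the 758.8 to 2227 of the rest. The part of these cells in the FC values that follow was not tested.

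A gene was tested if a probe of it was detected on at least 4 of the 12 arrays. By that filter 18 members were tested, with 32 probes, which is 62.1% of the 29 members with a probe. For all genes with a probe the share was 61.4%. The same 18 members and 32 probes passed without FC 1 and FC 3. The other 11 members, with 16 probes, stayed at background, and 7 further probes of 6 tested members were not tested either. Signals below are normalized log2 signals over all 12 arrays, and the brightest tested probe stands for its gene. The normalized signal of 1 probe cannot be set against that of another.

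The tested members fell unevenly over the roles. All 3 nicotinic receptor subunits (Chrna4, Chrna7, Chrnb2) were tested, as were 3 of 4 muscarinic receptors (Chrm1, Chrm2, Chrm3). Both enzymes of monoamine breakdown (Maoa, Maob) and both enzymes that make and break down acetylcholine (Chat, Ache) were tested. Among serotonin receptors 6 of 9 were tested (Htr1a, Htr1b, Htr2a, Htr2c, Htr3a, Htr5a), and among noradrenaline receptors 1 of 2 (Adra2c). Of the 4 enzymes of monoamine synthesis 1 was tested (Ddc), and of the 3 plasma membrane transporters 0.

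The promoters of 3 members are printed because Htr5a and Chat had the largest differences of IMO_FC above HC among the tested members, while Th, at background, was the member with a complete cAMP response element. They were chosen after these values were seen. Each run is the 250 bases before the start used in the promoter set, 5′ to 3′ on the gene's strand, from RefSeq on GRCm38.p6. For Htr5a that start differs from the start of the annotated gene, chr5:27841716. Most of the Htr5a window therefore lies inside the annotated gene. Capitals mark the core TGACG of the cAMP response element or its reverse complement CGTCA, and the complete element is TGACGTCA, which contains both. The windows are chr5:27841697-27841946 on the plus strand for Htr5a, chr14:32465910-32466159 on the minus strand for Chat, and chr7:142899996-142900245 on the minus strand for Th.
Htr5a: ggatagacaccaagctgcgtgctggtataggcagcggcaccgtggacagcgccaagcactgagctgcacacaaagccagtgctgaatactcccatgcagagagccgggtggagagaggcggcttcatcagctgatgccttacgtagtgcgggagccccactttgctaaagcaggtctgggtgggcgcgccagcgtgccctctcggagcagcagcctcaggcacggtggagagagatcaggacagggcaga
Chat: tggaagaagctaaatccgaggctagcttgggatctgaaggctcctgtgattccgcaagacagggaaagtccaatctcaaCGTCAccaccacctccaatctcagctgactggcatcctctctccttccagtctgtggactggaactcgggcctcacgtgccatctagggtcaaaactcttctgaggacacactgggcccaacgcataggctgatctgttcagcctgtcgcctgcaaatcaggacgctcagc
Th: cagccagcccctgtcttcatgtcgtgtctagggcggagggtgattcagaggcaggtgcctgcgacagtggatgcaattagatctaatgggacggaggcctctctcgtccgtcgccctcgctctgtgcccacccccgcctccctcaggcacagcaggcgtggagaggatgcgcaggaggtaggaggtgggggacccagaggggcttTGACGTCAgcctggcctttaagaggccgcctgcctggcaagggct

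The match in the Chat window began 171 bases before the start, and the complete element in the Th window began 45 bases before it. These letters are not in the Htr5a window. Entries were found for 26 of the 33 members. On either strand TGACG was in 3 of the 16 windows of tested members (18.8%), in 4 of the 11 windows of members at background (36.4%) and in 17.8% of all 32851 windows in the table. The complete element was in 0 of 16, in 1 of 11 and in 1.55% of all windows. The median GC content was 55.8% for tested members, 64.8% for members at background and 52.4% for all windows. A match of letters is a description and no measure of a factor's binding.

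The members at background were mainly the genes of the monoamine axons. Th, the rate-limiting enzyme of catecholamine synthesis, Dbh, which turns dopamine into noradrenaline, and Tph2, the serotonin-making hydroxylase of neurons, were each detected on 0 of 12 arrays. The noradrenaline transporter Slc6a2 (3 probes) and the dopamine transporter Slc6a3 were also detected on 0 arrays. The serotonin transporter Slc6a4 had 1 of its 2 probes detected on 1 array, FC 1. Adra1b (2 probes) and Htr6 were detected on 0 arrays. Htr4, a receptor coupled to cAMP production, had each of its 2 probes detected on 2 arrays. Htr7, another receptor of that coupling, was detected on 3 arrays, IMO_FC 1, FC 2 and FC 4. Its normalized log2 signal was 5.74, 5.89 and 5.07 on these, 4.50 to 4.68 on the other IMO_FC arrays and 4.46 to 4.66 in HC. A gene detected only on FC 2 and FC 4 could not reach the 4 arrays that the filter asks for. Chrm4, an inhibitory muscarinic receptor, was detected on 2 arrays, FC 1 and HC 4.

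The 16 probes of these members showed how arrays FC 1 and FC 3 differ. Their median normalized log2 signal was 4.37 to 4.43 on the IMO_FC arrays, 4.42 to 5.10 on the FC arrays and 4.39 to 4.47 on the HC arrays. Over a log2 signal of 5 there were 9 of the 16 probes on FC 1 and 5 on FC 3, 3 on IMO_FC 1, and 1 each on FC 2, FC 4 and HC 1. The other 6 arrays had 0. On FC 1, 2 of the 16 probes were detected, and on FC 3 0 were. A high normalized value on these 2 arrays was thus often not a detected signal.

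**Figure D1:**
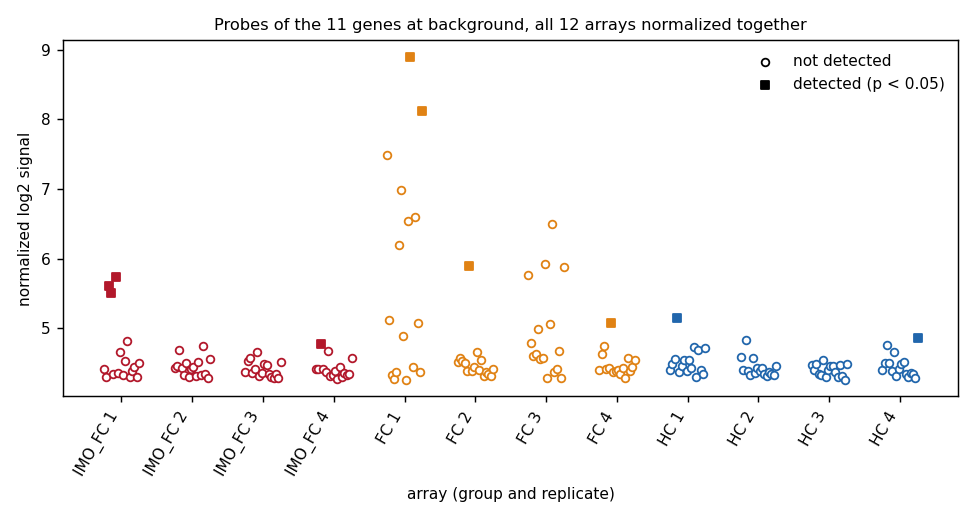
Normalized log2 signal (y axis) of the 16 probes of the 11 genes at background, on each of the 12 arrays (x axis). Filled squares are detected at p under 0.05 and open circles are not. FC 1 has 9 probes over 5 and FC 3 has 5, most of them open circles.

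Among the 32 tested probes, the number detected per array was 21, 30, 29 and 30 on IMO_FC 1 to 4, 4, 25, 3 and 28 on FC 1 to 4, and 29, 22, 29 and 26 on HC 1 to 4. The FC group therefore rests largely on FC 2 and FC 4. IMO_FC 1 was the lowest array of its group.

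**Figure D2:**
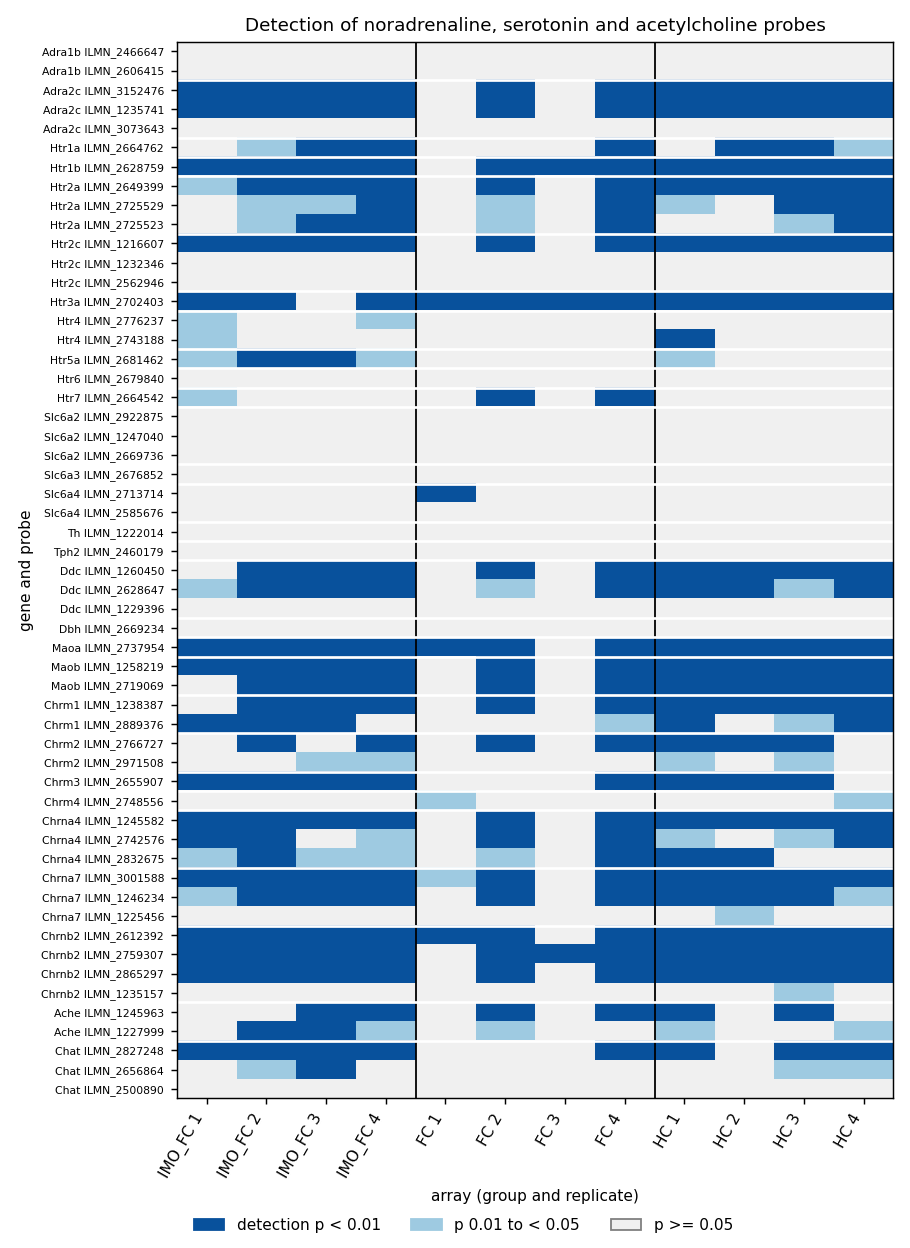
Detection p of all 55 probes (y axis, gene and probe) on each of the 12 arrays (x axis): dark blue under 0.01, light blue from 0.01 to under 0.05, grey at 0.05 or above. Columns FC 1 and FC 3 are grey for nearly all genes, and the monoamine transporters, Th, Tph2 and Dbh are grey on nearly all arrays.

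No probe of the array passed in any of the 3 comparisons, where limma's adjusted p had to be under 0.05 (0 of 23516 tested probes, 0%). An unadjusted limma p under 0.05 was reached by 94 probes when IMO_FC was set against HC, by 3933 in FC against HC, and by 3225 in IMO_FC against FC. The lowest adjusted p was 1, 0.297 and 0.356 in these comparisons. At that unadjusted level there were 1 of the 18 tested members (Htr5a), 1 (Ddc) and 2 (Htr5a and Chrna7) in the 3 comparisons, against 0.35%, 18.4% and 14.7% of all tested genes. On 10 arrays, again 0 of 23260 probes passed, with 737, 805 and 813 at an unadjusted p under 0.05. So no member gene is reported as changed, and the values that follow are sizes with their spread.

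For IMO_FC against HC, 8 of the 18 tested members had higher means in IMO_FC and 10 lower, with a median log2 difference of -0.09. The median over all 11698 tested genes was -0.02. The groups did not overlap for 1 member, Htr5a, against 2.5% of all tested genes in either direction. For FC against HC, 8 members were higher and 10 lower with a median of -0.23, where the median of all tested genes was -0.34, and 0 members had groups that did not overlap, against 3.96% of all. For IMO_FC against FC, 12 were higher and 6 lower with a median of 0.21, where that of all tested genes was 0.31. There Htr5a was higher and Chrna7 lower without overlap, 2 members, against 2.56% of all. FC is part of both of the last comparisons, so they share its arrays. Set against the median of all tested probes, -0.29 for FC against HC, Ddc was at -1.72 and Adra2c at -0.68. Against the probe median of 0.28 for IMO_FC against FC, Chrna7 was at -1.70. The members' adjusted p was 1 throughout in IMO_FC against HC, ran between 0.297 and 0.976 in FC against HC, and between 0.356 and 0.992 in IMO_FC against FC.

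Without FC 1 and FC 3 the picture of FC changed. For FC against HC 6 members were then higher and 12 lower with a median of -0.28, against a median of -0.01 over all genes. Adra2c and Chrm1 were higher and Htr2c and Maoa lower without overlap of the 2 FC and 4 HC arrays, 4 of 18, where 11.3% of all genes did not overlap. For IMO_FC against FC 11 were higher and 7 lower with a median of 0.11. Htr5a, Maoa and Chat were higher and Chrna7 lower without overlap, against 9.47% of all genes. IMO_FC against HC does not use the FC means and kept 8 higher and 10 lower, with a median of -0.10 and Htr5a as its 1 member without overlap, against 2.51% of all genes. Htr5a was tested only because it was detected in IMO_FC, so its place in these counts carries no weight.

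**Figure D3:**
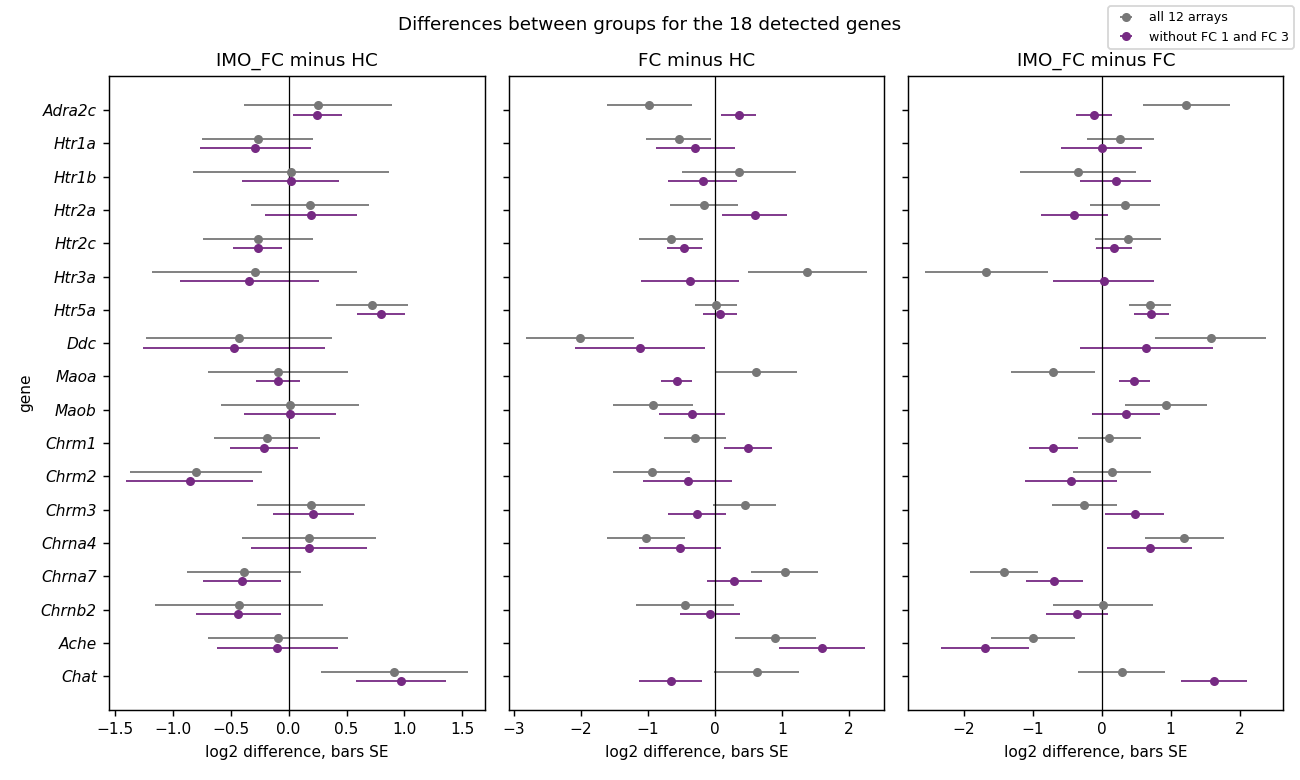
Log2 difference of normalized signal (x axis) for the 18 tested genes (y axis) in the 3 comparisons, from all 12 arrays in grey and without FC 1 and FC 3 in purple. Points are differences of means and bars are the SE of the limma fit. The pairs of points lie together for IMO_FC minus HC, and for FC minus HC 8 genes, among them Adra2c, Htr3a, Maoa and Chat, lie on opposite sides of 0.

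Adra2c, the α2C-adrenergic receptor that lowers cAMP and acts in part as a presynaptic brake, was read by probe ILMN_3152476. Its log2 signal was 9.08, 8.42, 9.08 and 8.92 on IMO_FC 1 to 4, 6.97, 9.04, 5.63 and 8.93 on FC 1 to 4, and 8.67, 8.42, 8.75 and 8.65 on HC 1 to 4. FC 1 and FC 3 were low and not detected there, while the IMO_FC and HC arrays overlapped. The difference was 0.25 ± 0.64 (SE) for IMO_FC against HC and -0.98 ± 0.64 for FC against HC. With those 2 arrays left out the FC difference was 0.36 ± 0.26, both remaining FC arrays lying above all 4 HC arrays. Its other tested probe, ILMN_1235741, gave -0.47 for FC against HC on 12 arrays and 0.50 on 10.

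Htr5a, a serotonin receptor coupled to inhibitory G proteins, was read by probe ILMN_2681462. Its signal was at 5.41, 5.14, 5.42 and 5.04 on IMO_FC 1 to 4, at 4.58, 4.67, 4.43 and 4.54 on FC 1 to 4 and at 4.83, 4.43, 4.51 and 4.37 on HC 1 to 4. Every IMO_FC array lay above every FC and HC array. The probe was dim: it was detected on 4 of 4 IMO_FC arrays, 0 of 4 FC arrays and 1 of 4 HC arrays. It passed the filter only through the group where it was high, so it had to differ to be tested and its p-values are not read. The deposited signal before normalization was 52.7, 70.1, 102.7 and 80.2 in IMO_FC, 34.9, 64.9, 55.4 and 64.5 in FC, and 45.0, 63.1, 66.5 and 55.0 in HC. On that scale IMO_FC 1 lay within the range of the other groups.

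Mean normalized Htr5a signal was 5.26 ± 0.19 in IMO_FC and 4.54 ± 0.21 in HC (SD, n = 4 each). The log2 difference was 0.72 ± 0.31 (SE), with a limma adjusted p of 1. On the 10 arrays it was 0.80 ± 0.21. Against FC, where the probe was not well above background, a bound was available only without FC 1 and FC 3. On the normalized scale it was at least 1.34-fold higher in IMO_FC, with a limma adjusted p of 1. The measured means were 5.39 ± 0.21 in IMO_FC (n = 4) and 4.66 ± 0.11 in FC (n = 2). This bound carries no weight, because the probe passed the filter only through IMO_FC. Of the 3 comparisons, FC against HC has no fold for this gene because the probe was detected on 0 arrays of FC and 1 of HC: the means were 4.55 ± 0.10 in FC and 4.54 ± 0.21 in HC (n = 4 each).

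**Figure D4:**
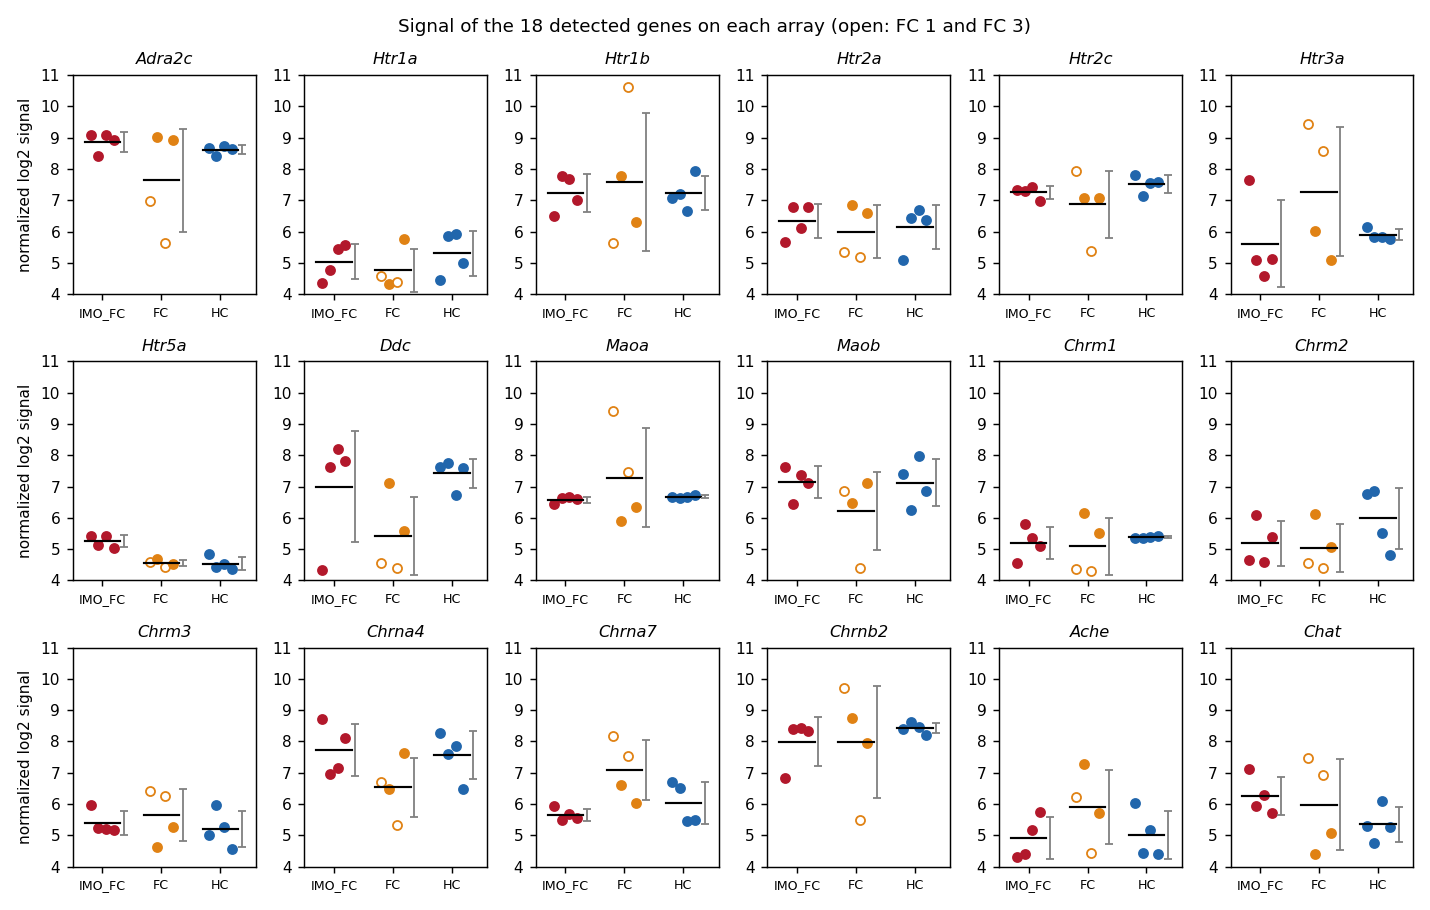
Normalized log2 signal (y axis) of the 18 tested genes on each array, by group (x axis). Points are arrays, with FC 1 and FC 3 open, black lines are group means and grey bars the SD of 4 arrays. The 4 IMO_FC points of Htr5a lie above all others in its panel, and the FC bars are widest where FC 1 and FC 3 lie far from FC 2 and FC 4.

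Htr1a and Htr1b encode inhibitory serotonin receptors that also act as autoreceptors on serotonin neurons. Htr1a was at 4.37 to 5.57 in IMO_FC, 4.31 to 5.77 in FC and 4.45 to 5.93 in HC, so its groups overlapped throughout. The differences were -0.27 ± 0.48 for IMO_FC against HC and -0.54 ± 0.48 for FC against HC. They were -0.03 ± 0.51 for IMO_FC on the 9 arrays and -0.29 ± 0.59 for FC on the 10 arrays. Htr1b was at 6.50 to 7.76 in IMO_FC, 5.63 to 10.61 in FC and 6.65 to 7.95 in HC, with both FC extremes on FC 1 and FC 3. It differed from HC by 0.02 ± 0.84 in IMO_FC and 0.36 ± 0.84 in FC with all arrays. The sign for FC turned on the 10 arrays, to -0.18 ± 0.52, and on the 9 arrays IMO_FC was at 0.27 ± 0.41.

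Htr2a and Htr2c encode excitatory receptors coupled to phospholipase C. Htr2a was at 5.66 to 6.79 in IMO_FC, 5.18 to 6.86 in FC and 5.10 to 6.69 in HC. It differed from HC by 0.18 ± 0.51 in IMO_FC and -0.16 ± 0.51 in FC, and by 0.60 ± 0.49 in FC without FC 1 and FC 3. On the 9 arrays IMO_FC was at 0.43 ± 0.39. Its other 2 tested probes gave 0.55 and 0.70 for FC against HC on the 10 arrays. With all arrays they gave 0.27 and 0.28, opposite in sign to the brightest probe.

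Htr2c was at 7.34, 7.29, 7.42 and 6.97 in IMO_FC, 7.94, 7.09, 5.38 and 7.06 in FC and 7.80, 7.14, 7.55 and 7.58 in HC. FC 2 and FC 4 lay just below the lowest HC array, and FC 1 was the highest of all on this normalized scale. In the deposited signal before normalization FC 1 was the lowest, at 41.3, and FC 3 was at 59.7. All other arrays were at 144.2 to 298.4. The probe was not detected on FC 1, at a detection p of 0.0630, nor on FC 3. The gene is strongly expressed in choroid plexus. The summed signal of the choroid plexus list was 1758 to 3108 in IMO_FC, 2150 to 13804 in FC and 1830 to 5032 in HC, with the FC maximum on FC 1, and 1987 to 3426, 2399 to 2583 and 2073 to 5639 on the 10 arrays. Its part in the Htr2c values was not tested. The difference was -0.26 ± 0.48 for IMO_FC against HC, and -0.65 ± 0.48 for FC against HC. On the 10 arrays the FC difference was -0.45 ± 0.26, with an exact permutation p of 0.2, where 2 against 4 arrays allow 0.0667 at best.

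Htr3a, which encodes a serotonin-gated ion channel subunit where the other serotonin receptors named here couple to G proteins, is known in cortex and amygdala as a marker of some interneurons. Probe ILMN_2702403 was at 7.66, 5.08, 4.57 and 5.12 in IMO_FC, 9.43, 6.02, 8.58 and 5.10 in FC and 6.16, 5.84, 5.84 and 5.76 in HC. IMO_FC 1, FC 1 and FC 3 were the 3 highest arrays on this normalized scale, and the other IMO_FC arrays lay below all HC arrays. In the deposited signal before normalization FC 1 was the lowest array, at 65.9. FC 3, at 83.8, lay there within the 67.9 to 174.8 of the rest. The probe was detected on FC 1 and on FC 3. With all arrays the difference was -0.29 ± 0.89 for IMO_FC against HC, and without FC 1, FC 3 and IMO_FC 1 it was -1.09 ± 0.28 with a limma adjusted p of 1. For FC against HC it was 1.38 ± 0.89 on all 12 arrays and -0.37 ± 0.73 without FC 1 and FC 3.

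Ddc encodes the decarboxylase that makes serotonin and dopamine from their precursors. Probe ILMN_1260450 was at 4.35, 7.62, 8.19 and 7.83 in IMO_FC, 4.57, 7.10, 4.39 and 5.59 in FC and 7.62, 7.75, 6.73 and 7.59 in HC. IMO_FC 1, FC 1 and FC 3 were at the floor and not detected. FC 4 was below all HC arrays, and FC 2 lay within them.

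The Ddc difference was -2.01 ± 0.80 for FC against HC (limma adjusted p = 0.297, exact permutation p = 0.0571), and -1.12 ± 0.97 without FC 1 and FC 3. For IMO_FC against HC it was -0.43 ± 0.80, and 0.46 ± 0.39 without FC 1, FC 3 and IMO_FC 1. Against FC, IMO_FC was higher by 1.58 ± 0.80 on all arrays, 0.65 ± 0.97 without FC 1 and FC 3, and 1.57 ± 0.47 without IMO_FC 1 as well, where the 3 IMO_FC arrays lay above both FC arrays. The other tested probe, ILMN_2628647, was detected on IMO_FC 1, at 5.68 beside 5.77 to 6.08 on the rest of the group, so the drop on that array was in 1 of the 2 probes. It gave 0.33 for IMO_FC against HC and -0.64 for FC against HC, the second being -0.35 on the 10 arrays. The marker list of monoamine cell bodies had 7 genes with a probe, of which 1 was tested, Slc18a2, the vesicular monoamine transporter. The list's summed normalized signal was 21.2 to 159.5 in IMO_FC, 52.8 to 241.6 in FC and 121.8 to 300.5 in HC, and its part in the Ddc values was not tested.

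Maoa and Maob encode the mitochondrial oxidases that break down monoamines. Maoa, which prefers serotonin and noradrenaline, was at 6.44, 6.62, 6.65 and 6.61 in IMO_FC, 9.43, 5.91, 7.46 and 6.34 in FC and 6.65, 6.63, 6.66 and 6.74 in HC. The IMO_FC and HC groups were tight, with SDs of 0.10 in IMO_FC and 0.05 in HC. On this normalized scale FC 1 and FC 3 were above and FC 2 and FC 4 below all arrays of the other groups. In the deposited signal before normalization FC 1 and FC 3 were the lowest arrays, at 66.1 and 65.2. All other arrays were at 83.5 to 181.6. The probe was detected on FC 1 and not on FC 3.

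The Maoa difference for FC against HC was 0.62 ± 0.61 on all 12 arrays and -0.57 ± 0.23 without FC 1 and FC 3 (limma adjusted p = 1, exact permutation p = 0.0667). IMO_FC against FC gave -0.71 ± 0.61 with all arrays and 0.47 ± 0.23 on 10. IMO_FC and HC differed by -0.09 ± 0.61, and by -0.04 ± 0.17 on the 9 arrays. Maob was at 6.43 to 7.62 in IMO_FC, 4.39 to 7.11 in FC and 6.25 to 7.98 in HC, and it differed from HC by 0.01 ± 0.59 in IMO_FC and -0.92 ± 0.59 in FC. The FC difference was -0.34 ± 0.49 on the 10 arrays, and that of IMO_FC -0.15 ± 0.42 on the 9. The other tested Maob probe, ILMN_2719069, gave -0.33 for IMO_FC and -0.23 for FC with all arrays. It gave 0.23 for FC on the 10 arrays and 0.15 for IMO_FC on the 9, both opposite in sign.

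Muscarinic receptors are the G protein-coupled receptors of acetylcholine. Chrm1, the main excitatory one of forebrain principal neurons, was at 4.55, 5.79, 5.34 and 5.10 in IMO_FC, 4.37, 6.17, 4.29 and 5.52 in FC and 5.36, 5.37, 5.40 and 5.42 in HC. The 4 HC arrays were within an SD of 0.03, and FC 2 and FC 4 were above all of them. The difference was -0.19 ± 0.46 for IMO_FC against HC, -0.30 ± 0.46 for FC against HC and 0.49 ± 0.36 for FC against HC without FC 1 and FC 3. The other Chrm1 probe, ILMN_2889376, gave -0.36 in that last comparison. On the 9 arrays IMO_FC was at 0.02 ± 0.24 from HC.

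Chrm2, an inhibitory receptor found on cholinergic terminals, was at 4.59 to 6.10 in IMO_FC, 4.41 to 6.13 in FC and 4.81 to 6.84 in HC. It differed from HC by -0.80 ± 0.57 in IMO_FC, the lowest difference of the 18 members in that comparison, and by -0.94 ± 0.57 in FC. Without FC 1 and FC 3 the FC difference was -0.41 ± 0.67. The other probe, ILMN_2971508, gave 0.07 for IMO_FC and -0.27 for FC with all arrays, and -0.36 for FC on 10. Chrm3, which is excitatory, was at 5.17 to 5.95 in IMO_FC, 4.64 to 6.40 in FC and 4.55 to 5.96 in HC, with differences from HC of 0.19 ± 0.47 in IMO_FC and 0.44 ± 0.47 in FC. The FC difference turned to -0.26 ± 0.43 on the 10 arrays, and that of IMO_FC was 0.02 ± 0.35 on the 9.

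Chrna4 and Chrnb2 encode the subunits of the main high-affinity nicotinic receptor of the brain. Chrna4 (ILMN_1245582) was at 8.73, 6.97, 7.14 and 8.10 in IMO_FC, 6.69, 6.47, 5.34 and 7.64 in FC and 8.27, 7.61, 7.87 and 6.48 in HC. Its differences were 0.18 ± 0.58 for IMO_FC against HC and -1.03 ± 0.58 for FC against HC. The FC difference was -0.52 ± 0.61 on the 10 arrays, and that of IMO_FC turned to -0.16 ± 0.48 on the 9. Its other 2 tested probes gave 0.91 and 0.35 for FC against HC, opposite in sign, and 1.44 and 0.07 on the 10 arrays.

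Chrnb2 (ILMN_2612392) was at 6.83, 8.39, 8.43 and 8.32 in IMO_FC, 9.71, 8.74, 5.50 and 7.97 in FC and 8.41, 8.61, 8.46 and 8.21 in HC. IMO_FC 1 stood below the rest of its group. With all arrays IMO_FC was at -0.43 ± 0.72 from HC, and without FC 1, FC 3 and IMO_FC 1 at -0.04 ± 0.22. FC was at -0.44 ± 0.72 from HC with all arrays and at -0.07 ± 0.45 on the 10. For FC against HC the 3 tested Chrnb2 probes did not share 1 sign, with all arrays or on the 10.

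Chrna7, the subunit of the homomeric receptor with high calcium permeability, had the smallest p-value of the members for IMO_FC against FC. Probe ILMN_3001588 was at 5.92, 5.49, 5.68 and 5.54 in IMO_FC, 8.17, 6.60, 7.52 and 6.03 in FC and 6.72, 6.51, 5.45 and 5.49 in HC. On this normalized scale all FC arrays lay above all IMO_FC arrays, and HC overlapped IMO_FC. The deposited signal before normalization was 63.3, 83.7, 114.3 and 98.5 in IMO_FC and 42.1, 144.7, 65.5 and 121.5 in FC. On that scale FC 1 lay below all IMO_FC arrays and FC 3 within their range. The probe was detected on FC 1, at a detection p of 0.0459, and not on FC 3. The difference was -1.42 ± 0.49 (limma adjusted p = 0.356, exact permutation p = 0.0286, the smallest that 4 against 4 arrays allow), and -0.69 ± 0.41 without FC 1 and FC 3.

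The other Chrna7 probe, ILMN_1246234, was at 5.70, 5.53, 5.72 and 5.36 in IMO_FC and at 4.34, 6.71, 4.57 and 5.84 in FC. FC 1 and FC 3, high on the one probe, were low on the other, and the difference had the opposite sign, 0.21, with all arrays. Without those 2 arrays it was -0.74. For FC against HC, ILMN_3001588 gave 1.04 ± 0.49 and 0.29 ± 0.41 on all and on 10 arrays. There ILMN_1246234 gave -0.66 and 0.27, so the probes had opposite signs with all arrays. For IMO_FC against HC with all arrays, ILMN_3001588 gave -0.38 ± 0.49 and ILMN_1246234 gave -0.45.

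Ache encodes acetylcholinesterase, which ends the acetylcholine signal. Probe ILMN_1245963 was at 4.31, 4.42, 5.17 and 5.75 in IMO_FC, 6.21, 7.29, 4.43 and 5.70 in FC and 6.04, 4.43, 5.17 and 4.39 in HC. FC 2 was the highest array and FC 1, where the probe was not detected, the next, while FC 3 and FC 4 lay within the range of the other groups. The Ache difference for FC against HC was 0.90 ± 0.60 on all 12 arrays and 1.59 ± 0.64 without FC 1 and FC 3 (limma adjusted p = 1, exact permutation p = 0.2). The other probe, ILMN_1227999, gave -0.04 and 0.20. IMO_FC was at -0.09 ± 0.60 from HC with all arrays and at 0.13 ± 0.57 on the 9.

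Chat encodes choline acetyltransferase, the enzyme that makes acetylcholine and marks cholinergic neurons. Probe ILMN_2827248 was at 7.10, 5.93, 6.28 and 5.73 in IMO_FC, 7.47, 4.41, 6.91 and 5.09 in FC and 5.30, 4.75, 6.10 and 5.25 in HC. It was detected on all 4 IMO_FC arrays, 1 of 4 FC arrays and 3 of 4 HC arrays. FC 1 and FC 3 had high values without being detected, and FC 2 and FC 4 lay below all IMO_FC arrays. IMO_FC and HC overlapped through HC 3.

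Mean Chat signal was 6.26 ± 0.61 in IMO_FC and 5.35 ± 0.56 in HC (SD, n = 4 each), a difference of 0.91 ± 0.63 (SE) with a limma adjusted p of 1 and an exact permutation p of 0.0857. Without FC 1 and FC 3 it was 0.97 ± 0.39, and without IMO_FC 1 as well 0.69 ± 0.35. Leaving out each array in turn gave 0.64 to 1.15. For IMO_FC against FC it was 0.29 ± 0.63 on all 12 arrays and 1.63 ± 0.47 without FC 1 and FC 3 (limma adjusted p = 1, exact permutation p = 0.0667). FC was at 0.62 ± 0.63 from HC with all arrays and at -0.66 ± 0.47 on the 10. The other tested probe, ILMN_2656864, gave 0.39 for IMO_FC against HC on all 12 arrays and 0.42 without FC 1 and FC 3, and 0.36 for IMO_FC against FC without them.

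Other genes of cholinergic neurons are given beside Chat. Slc5a7, the choline transporter, differed by -0.08 for IMO_FC against HC, Slc18a3, the vesicular acetylcholine transporter, by 0.10, and the transcription factors Lhx8 and Isl1 by -0.19 and -0.05. The list was dim. With Chat, the mean normalized log2 signal of its 5 genes was 5.32 to 5.38 in IMO_FC and 4.67 to 5.78 in HC. The lowest signal of a detected probe on those arrays was 4.73 to 5.32. Small differences this near the floor say little. The summed normalized signal of these 4 genes and Chat was 214.6 to 265.9 in IMO_FC, 114.9 to 694.4 in FC and 130.4 to 303.6 in HC. On the 10 arrays it was 237.7 to 299.2 in IMO_FC, 119.0 to 188.9 in FC and 137.5 to 344.1 in HC. There the list was lower in FC than in IMO_FC without overlap. Chat is part of this sum and was itself lower without overlap, so the sum is no separate observation. A sum without Chat was not made. All 5 genes were tested, the IMO_FC range lay within that of HC, and the part of these cells in the Chat values was not tested. In tissue punches a change in the number of cells of a type and a change of RNA per cell cannot be told apart.

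Probes of 1 gene often differed in direction. Of the 11 members with 2 or more tested probes, 6 had 1 sign on all of them for IMO_FC against HC (Adra2c, Htr2a, Chrna4, Chrna7, Chrnb2 and Chat) and 5 did not. With all arrays the counts of 1 sign were 6 in FC against HC, and 4 in IMO_FC against FC. On the 10 arrays they were 6 in each of the 3 comparisons.

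A further 54 genes of the same pathways were listed, of which 46 had a probe and 25 were tested with all arrays. They were dopamine receptors, other serotonin, muscarinic and nicotinic receptors, vesicle transporters, cofactor enzymes and receptor chaperones. None passed (0 of 25 in each of the 3 comparisons). At an unadjusted limma p under 0.05 there were 0 in IMO_FC against HC, 2 in FC against HC, and 4 in IMO_FC against FC, to be read against the shares of all genes given above. In IMO_FC against HC 14 were higher and 11 lower, in FC against HC 13 and 12, and in IMO_FC against FC 11 and 14. The medians were 0.05, 0.15 and -0.13.

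For IMO_FC against HC Slc18a2, which loads monoamines into vesicles, was at 4.41, 7.32, 7.15 and 6.55 in IMO_FC and 8.21, 7.37, 6.93 and 8.23 in HC, a difference of -1.33 ± 0.66 with IMO_FC 1 at the floor, and of -0.69 ± 0.41 on the 9 arrays. Aldh1a1, an aldehyde dehydrogenase of dopamine breakdown, differed by 0.90 ± 0.59 and Pts, an enzyme of tetrahydrobiopterin synthesis, by -0.45 ± 0.40, or -0.18 ± 0.23 on the 9 arrays. For FC against HC Lypd1, a membrane-anchored modulator of nicotinic receptors, gave -3.44 ± 1.27 and -0.39 ± 0.49 without FC 1 and FC 3. Ric3, a chaperone of nicotinic receptor assembly, gave -2.11 ± 0.85 and -0.07 ± 0.26 without them, and Ly6e 1.05 ± 0.51 and 0.57 ± 0.54.

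For IMO_FC against FC Tmem35a, a chaperone of the Chrna7 receptor, gave 1.67 ± 0.68 on all 12 arrays and 0.39 ± 0.28 without FC 1 and FC 3. Its signal was 8.67, 8.40, 8.42 and 8.33 in IMO_FC and 4.28, 7.94, 6.72 and 8.20 in FC, so the groups did not overlap. Ric3 gave 1.99 ± 0.85 and -0.05 ± 0.26, and Aldh1a1 1.40 ± 0.59 and 0.99 ± 0.69.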

How the data were processed

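The data are 12 single-colour Illumina arrays. Per the file headers the deposited table holds a signal intensity and a detection p-value per probe and array. Per the labels, RNA was purified with an RNeasy kit and labelled with biotin by the MessageAmp procedure. A deposited normalized table of intensity (array medians 60.0 to 60.7, rank order kept, method not given in the sources used here) served only as an alternative. Unnormalized signals were corrected from the detection p-values and quantile normalized with limma's neqc (offset 16, log2). Probes detected at p under 0.05 on at least 4 arrays were tested. One limma fit with a mean per group over 12 arrays (9 residual degrees of freedom) gave the 3 comparisons, with Benjamini-Hochberg adjustment over all tested probes. The ± of a difference is its SE. Exact permutation p-values are two-sided, unadjusted, and over 70 arrangements of 4 against 4 or 15 of 2 against 4.

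Genes were named by the platform annotation. All 33 members are named, and of the other pathway genes up to 3 of smallest p per comparison. The members, lists and rules were chosen with earlier results of these data known. Where a probe was not well above background on any array of a group, the fold is a bound against the higher of each array's lowest signal among detected probes and the probe's own. On simulated data, all 12 arrays recovered 0 of 100 probes changed 2-fold in each comparison and 8, 13 and 10 of 100 changed 4-fold (IMO_FC against HC, FC against HC, IMO_FC against FC). Without FC 1 and FC 3 these were 13, 2 and 3, and 66, 42 and 48. The arrays' number limits the precision, and in each 12-array comparison the error includes the spread of FC 1 and FC 3. Versions were R 4.3.3 and limma 3.58.1. The alternatives tried are in the closing section.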

Additional observations from a re-analysis of the deposited data

Results flagged for a closer look

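Dixon's criterion, applied to the 4 arrays of each group for the 18 tested members, marked 4 of 54 groups where chance gives 2.7, and 3 of the 4 were on array IMO_FC 1. Ddc on IMO_FC 1 was at a normalized log2 signal of 4.35, not detected, against 7.62 to 8.19 on the other IMO_FC arrays. The second Ddc probe, ILMN_2628647, was detected there at 5.68, beside 5.77 to 6.08. Ddc on HC 3 was at 6.73, against 7.59 to 7.75 on the other HC arrays. Chrm3 on IMO_FC 1 was at 5.95, against 5.17 to 5.25 on the rest of the group. Chrnb2 on IMO_FC 1 was at 6.83, against 8.32 to 8.43. IMO_FC 1 also had the lowest share of detected probes in its group, 39.0%, and its part in these values was not tested.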

How the results depend on the processing

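No member passed the threshold under any setting that was run. Over all probes, the called counts of 0 moved in 3 cases: without FC replicate 4, FC against HC gave 58 and IMO_FC against FC gave 76, and with array weights IMO_FC against HC gave 2. Leaving out each array in turn gave 0 to 0 called probes for IMO_FC against HC, 0 to 58 in FC against HC, and 0 to 76 in IMO_FC against FC. The cause was not tested. Chrna7 for IMO_FC against FC reversed to 0.21 with the other probe, ILMN_1246234.

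Of the 54 member differences, the sign changed in 17 without FC 1 and FC 3 (0 of them for IMO_FC against HC), 20 without IMO_FC 1 as well, 20 with array weights, 10 with median scaling, 2 without background correction, 2 with the authors' normalized values and 0 without the detection filter. Another probe changed it in 20 of 42, and an array left out in 43 of 648. Chat kept a positive sign for IMO_FC against HC in every setting that was run, at 0.39 to 1.15. Median scaling put the median of all tested probes at -0.75 in FC against HC and at 0.64 in IMO_FC against FC, where quantile normalization gave -0.29 and 0.28. The replicate block gave 0 called probes in each comparison and changed 0 of 54 signs. Same-numbered arrays deviated together in 2 of 12 pairs by a correlation over 0.1 (range -0.12 to 0.22). Arrays of different numbers were not compared, so this cannot show whether same-numbered arrays are paired, and the labels do not say. The stricter filter on all 12 arrays left no member. A slide block was not run because the files name no slides. FC 1 and FC 3, with few detected probes, limit all FC values. The fit without IMO_FC 1 was chosen after seeing the data.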

Other observations

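The dopamine receptors of the wider lists were not described above. Drd1, the stimulatory receptor of striatal and amygdala neurons, was at 8.03, 7.25, 7.52 and 7.89 in IMO_FC and at 8.00, 7.36, 7.20 and 7.93 in HC, a difference of 0.05 ± 0.43 (SE), or -0.07 ± 0.31 without FC 1, FC 3 and IMO_FC 1. Drd2, the inhibitory one, was at 7.37, 6.80, 6.25 and 6.33 in IMO_FC and at 6.42, 5.40, 6.14 and 7.10 in HC, a difference of 0.43 ± 0.52, or 0.21 ± 0.43 without those arrays. Both overlapped and neither passed (limma adjusted p = 1). The 5 striatal marker genes with a probe, which include both, had a summed normalized signal of 833.1 to 2227 in IMO_FC, 1042 to 2195 in FC and 758.8 to 1762 in HC.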
